A study of Mus musculus with 6 samples.

Results

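The 10 genes described here are ones that mark tissue macrophages and were used for the macrophages of the testis: Csf1r, Adgre1, Cd68, Cd14, Mrc1, Aif1, Cd163, Lyz2, Tyrobp and C1qa. On the array they were represented by all probe sets that name exactly 1 of these genes in the platform annotation, which gave 12 of the 45037 probe sets in the deposited table. Csf1r had 3 probe sets and each of the other 9 genes had 1. RNA of whole testes at postnatal day 21 (P21) was measured on Affymetrix Mouse Genome 430 2.0 arrays, in 3 wild-type (Wt) samples and 3 Dazap1 mutant samples homozygous for the floxed with neo (Fn) allele, all on a mixed C57BL/6 and 129 background. The Fn allele makes an altered DAZAP1 protein with extra residues between its RNA-recognition motifs, and because homozygotes are often lost near birth, the Fn samples stand for animals that lived to P21, which are small and whose germ cells do not mature fully. The study states that different RNA preparations were used but not how many animals stand behind each, and p-values measure only the spread between these samples.

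Macrophages are phagocytes that engulf dying cells and debris, and their survival in tissues depends on the receptor CSF1R and its ligands CSF1 and IL34. In the testis they lie in the interstitium beside the steroid-producing Leydig cells and along the wall of the seminiferous tubules, where they differ in their content of the scavenger and mannose receptors and of MHC class II. In whole-testis RNA, fewer cells of a type and less RNA per cell cannot be told apart.

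The values are MAS5 signals, which sum up the probes of a probe set on a linear scale, and the arrays had been brought to 1 level before deposit. Log2 signals were tested with limma over 27022 probe sets, after those with a geometric mean under the 40th percentile (a signal of 48.0) had been set aside. A gene took the value of its brightest probe set. Across the 13447 genes tested, 44.9% were higher and 24.7% were lower in Fn testes at an adjusted p under 0.05, and the median log2 difference was 0.32, so a macrophage gene with that change stood at the middle of all genes. Centring the arrays on their medians made this shift 0.17, and quantile normalization made it 0.25. The targeted gene, Dazap1, was lower in Fn testes by all 3 values (log2 difference -0.77, limma adjusted p = 6.7e-05), but where its probe set lies relative to the altered part of the gene was not given in the sources used here. Actb was also taken as a check. It read 16743, 16870 and 10475 in Wt replicates 1, 2 and 3 and 18746, 17914 and 10680 in Fn. Replicate 3 was the lowest in each genotype, and the log2 difference was 0.09 (limma adjusted p = 0.74).

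Here and below, a log2 difference is the mean log2 signal of Fn minus that of Wt, given with its standard error (SE). Of the 10 macrophage genes, 9 passed the filter on dim signals. In Fn testes 5 of them rose, namely Csf1r, Cd68, Lyz2, Tyrobp and C1qa, with log2 differences of 0.53 to 0.59. Aif1 fell, with a log2 difference of -1.06. Adgre1, Cd14 and Mrc1 did not pass the test. The share that rose, 55.6%, lay near the 44.9% of all genes, and the share that fell, 11.1%, was under the 24.7% of all genes. The median log2 difference of the 9 genes was 0.53, or 0.21 relative to all genes. The rise depended on scaling and on the arrays numbered 3: with the arrays centred on their medians 0 of the 9 genes rose in limma (0 also at an unadjusted p under 0.05, against 33.1% of all genes higher at the adjusted p), while Aif1 remained lower, as were 27.4% of all genes. Csf1r alone was called higher without Wt replicate 3, where 40.9% of all genes were, and without Fn replicate 3, where 41.3% were, and Aif1 was lower in both fits, where 22.2% and 24.5% of all genes were. Quantile normalization left 2 genes higher, Csf1r and Lyz2 (40.5% of all genes), and centring on the 75th percentile left 2, Csf1r and Cd68 (37.7%), with Aif1 lower in both (25.8% and 28.0%). Without the intensity trend of limma 3 genes were higher, Csf1r, Cd68 and Tyrobp (43.7% of all genes), and without Fn replicate 1 there were 3, Csf1r, Lyz2 and Tyrobp (39.0%), again with Aif1 lower (23.4% and 23.1%).

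**Figure D1:**
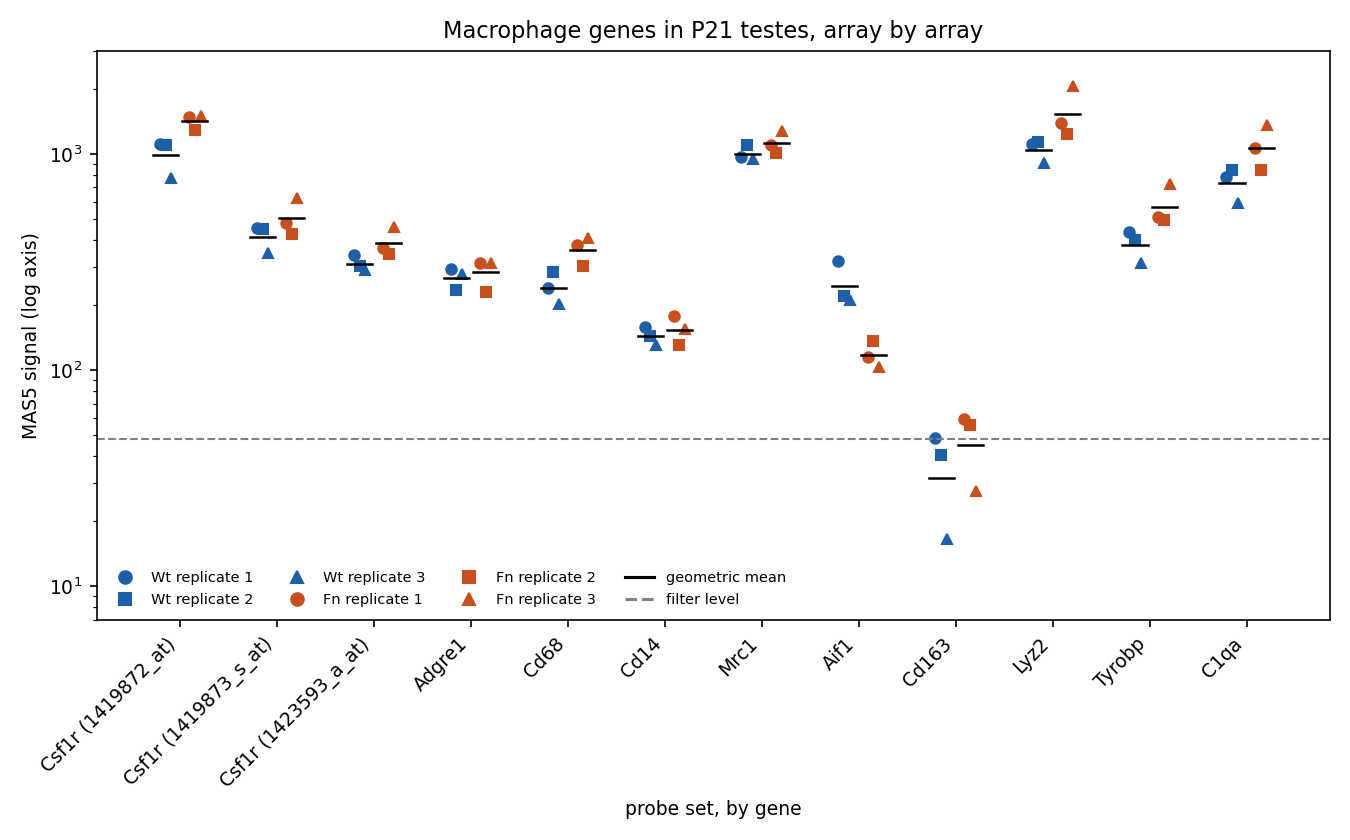
Signals (MAS5 units, log axis) of the 12 probe sets of the 10 macrophage genes in 3 Wt arrays (blue) and 3 Fn arrays (orange) of P21 testes, with the symbol giving the replicate number. Short bars give geometric means of 3 arrays, and a dashed line marks the signal of 48.0 below which a probe set was not tested. Wt replicate 3 is the lowest Wt array for most genes, Aif1 is the only gene with all Fn values below all Wt values, and Cd163 lies around the filter level.

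The RefSeq promoter table for mouse assembly GRCm38.p6 held a window, 250 bases before to 50 bases after the start, for 5 of the 10 genes: Mrc1, Cd163, Lyz2, Cd68 and Aif1. These were searched on both strands for GAGGAA, or TTCCTC when it lies on the other strand, the core of sites read by PU.1, the transcription factor that specifies macrophages. The letters were found in 3 of the 5 windows, against 28.3% of the 32851 windows in the table. The 250 upstream bases of these 3 genes are shown because 1 of them (Cd68) rose, 1 (Aif1) fell and 1 (Mrc1) did not pass the test. Capitals mark each match, 5′ to 3′ along the gene's strand.
Mrc1, chr2:14229164-14229413, plus strand: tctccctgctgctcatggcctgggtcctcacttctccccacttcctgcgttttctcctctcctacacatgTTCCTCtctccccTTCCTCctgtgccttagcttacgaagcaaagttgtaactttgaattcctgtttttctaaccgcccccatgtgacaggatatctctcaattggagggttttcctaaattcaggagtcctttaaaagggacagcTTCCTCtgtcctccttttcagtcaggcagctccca
Cd68, chr11:69666171-69666420, minus strand: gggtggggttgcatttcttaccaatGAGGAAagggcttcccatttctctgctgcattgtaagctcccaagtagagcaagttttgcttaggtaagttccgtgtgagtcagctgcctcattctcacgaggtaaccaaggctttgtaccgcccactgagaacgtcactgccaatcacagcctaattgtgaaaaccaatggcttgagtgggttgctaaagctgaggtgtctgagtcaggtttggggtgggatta
Aif1, chr17:35176053-35176302, minus strand: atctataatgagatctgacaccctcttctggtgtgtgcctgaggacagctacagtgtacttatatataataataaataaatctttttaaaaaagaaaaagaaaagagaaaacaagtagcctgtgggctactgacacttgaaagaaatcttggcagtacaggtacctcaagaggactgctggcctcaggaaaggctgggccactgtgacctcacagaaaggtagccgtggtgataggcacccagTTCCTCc
Mrc1 held 3 matches, starting 180, 167 and 35 bases before the start, and 0.685% of all windows held 3 or more. Cd68 held 1 match starting 225 bases before the start and 1 that lay after it, and Aif1 held 1 match starting 7 bases before the start. Windows of Lyz2 and Cd163 held 0 matches, which says only that these letters were not in them. A match of letters is a description and not a binding site, and the genes with a match did not share a direction.

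The receptors were read first. Csf1r encodes the receptor tyrosine kinase on which macrophages depend. Its brightest probe set (1419872_at) read 1116, 1104 and 774 in Wt replicates 1, 2 and 3 and 1483, 1287 and 1502 in Fn replicates 1, 2 and 3. Every Fn value lay above every Wt value, and Wt replicate 3 was the lowest of the 6. The Fn mean was 1424 ± 119 and the Wt mean 998 ± 194 (SD, n = 3 each), a ratio of geometric means of 1.44 and a log2 difference of 0.53 (SE 0.15, limma adjusted p = 0.012). The other probe sets of Csf1r moved less. The first of them (1419873_s_at) read 457, 447 and 348 in Wt and 478, 427 and 626 in Fn, so that the groups overlapped, with a log2 difference of 0.28 (95% interval -0.11 to 0.68, limma adjusted p = 0.19). The second (1423593_a_at) read 341, 304 and 291 in Wt and 366, 343 and 459 in Fn, a log2 difference of 0.31 (95% interval -0.04 to 0.66, limma adjusted p = 0.11). Its groups did not overlap; its lowest Fn value lay just above its highest Wt value. With the mean log2 signal of the 3 probe sets, Csf1r had a log2 difference of 0.37 and an adjusted p of 0.055 from limma, so its call rests on the brightest probe set.

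Adgre1 encodes F4/80, an adhesion receptor long used to mark mouse macrophages. It read 294, 235 and 280 in Wt and 314, 231 and 312 in Fn testes. Replicate 2 was the lowest array in each genotype and the groups overlapped. The log2 difference was 0.08 (95% interval -0.31 to 0.47, limma adjusted p = 0.72), so the interval leaves room for a rise to the median of all genes, 0.32, and for a fall of like size. Cd14, a co-receptor for bacterial lipopolysaccharide on monocytes and macrophages, was similarly placed. It read 158, 144 and 131 in Wt and 177, 131 and 154 in Fn testes, with a log2 difference of 0.09 (95% interval -0.34 to 0.53, limma adjusted p = 0.70). Both genes had a change slightly below 0 under each of the 3 other scalings, so no direction is given for either.

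Mrc1 encodes the mannose receptor CD206, which is abundant on macrophages of the testicular interstitium. It read 971, 1096 and 944 in Wt and 1098, 1011 and 1279 in Fn testes. Only Fn replicates 1 and 3 lay above all Wt values, and replicate 1 by little. The log2 difference was 0.17 (95% interval -0.10 to 0.44, limma adjusted p = 0.25), or -0.16 relative to all genes. Cd163, the haemoglobin scavenger receptor of resident macrophages, was dim. It read 48.3, 40.3 and 16.6 in Wt and 59.6, 55.7 and 27.5 in Fn testes, and since its geometric mean lay under the filter level it was not tested. Replicate 3 was the lowest array in each genotype, and in each same-numbered pair the Fn value was the higher.

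The lysosomal genes rose on the deposited scale. Cd68 encodes macrosialin, a glycoprotein of the late endosomes and lysosomes of macrophages. It read 241, 286 and 203 in Wt and 379, 304 and 409 in Fn testes. The Fn values lay above the Wt values, but Fn replicate 2 exceeded Wt replicate 2 by only 0.09 on the log2 scale, against 0.65 and 1.02 for the other 2 pairs. The log2 difference was 0.59 (SE 0.18, limma adjusted p = 0.018). Lyz2 encodes the lysozyme of myeloid cells, and its probe set may also read the closely similar Lyz1, so the value is uncertain as to the gene. It read 1111, 1140 and 907 in Wt and 1396, 1235 and 2052 in Fn testes. Fn replicate 3 stood well above the rest, and the log2 difference was 0.54 (SE 0.18, limma adjusted p = 0.026). Without that array it was 0.33, with an adjusted p of 0.066 from limma, and Cd68 then had 0.49, with an adjusted p of 0.057.

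Tyrobp encodes DAP12, the adaptor that carries the signals of several activating receptors of myeloid cells to the kinase SYK. It read 436, 400 and 313 in Wt and 512, 496 and 726 in Fn testes. The groups did not overlap and the difference was again widest between the arrays numbered 3. The Fn mean was 578 ± 129 and the Wt mean 383 ± 63.1 (SD, n = 3 each), a log2 difference of 0.59 (SE 0.19, limma adjusted p = 0.020). C1qa encodes a chain of C1q, the complement component that macrophages secrete and that tags dying cells. It read 786, 843 and 595 in Wt and 1063, 845 and 1365 in Fn testes, so that Fn replicate 2 and Wt replicate 2 were almost equal. The log2 difference was 0.55 (SE 0.19, limma adjusted p = 0.030). Leaving out both arrays numbered 3 brought Tyrobp to 0.27 (adjusted p = 0.13) and C1qa to 0.22 (adjusted p = 0.22), both from limma.

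Aif1 was the only 1 of the 10 genes that fell. It encodes IBA1, a calcium- and actin-binding protein of macrophages and microglia that has also been described in the spermatids of rodents. Its probe set (1418204_s_at, of a type that may match more than 1 transcript) read 318, 220 and 212 in Wt and 115, 137 and 104 in Fn testes. All 3 Fn values lay below all 3 Wt values, and the order of the arrays differed from that of the genes that rose, with Fn replicate 2 the highest and Fn replicate 3 the lowest Fn array. The Fn mean was 118 ± 16.8 and the Wt mean 250 ± 59.2 (SD, n = 3 each), a log2 difference of -1.06 (SE 0.21, limma adjusted p = 0.0019), or -1.39 relative to all genes. The change stayed between -1.22 and -0.88 over 17 alternatives, with the highest adjusted p at 0.0090 from limma. Genes listed for spermatids moved far in the same arrays. Of 10 listed, 7 passed the filter and 6 of these fell, where 24.7% of all genes did, with a median log2 difference of -2.98. The summed signal of all 10 was 18870 to 21810 in Wt and 2045 to 2372 in Fn testes. Most of it came from Dkkl1, Actl7b and Pgk2, with Wt means of 9893, 4364 and 3310. Prm1, Prm2, Tnp1 and Tnp2 had Wt means of only 82.3 to 181, and Prm2 and Acrv1 passed the filter through their Wt values. The paper describes testes of this age as holding mostly pachytene spermatocytes, with few or no haploid spermatids. Which cells gave the signals of the listed genes was not settled here. The part of the listed spermatid genes in the change of Aif1 was not tested.

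**Figure D2:**
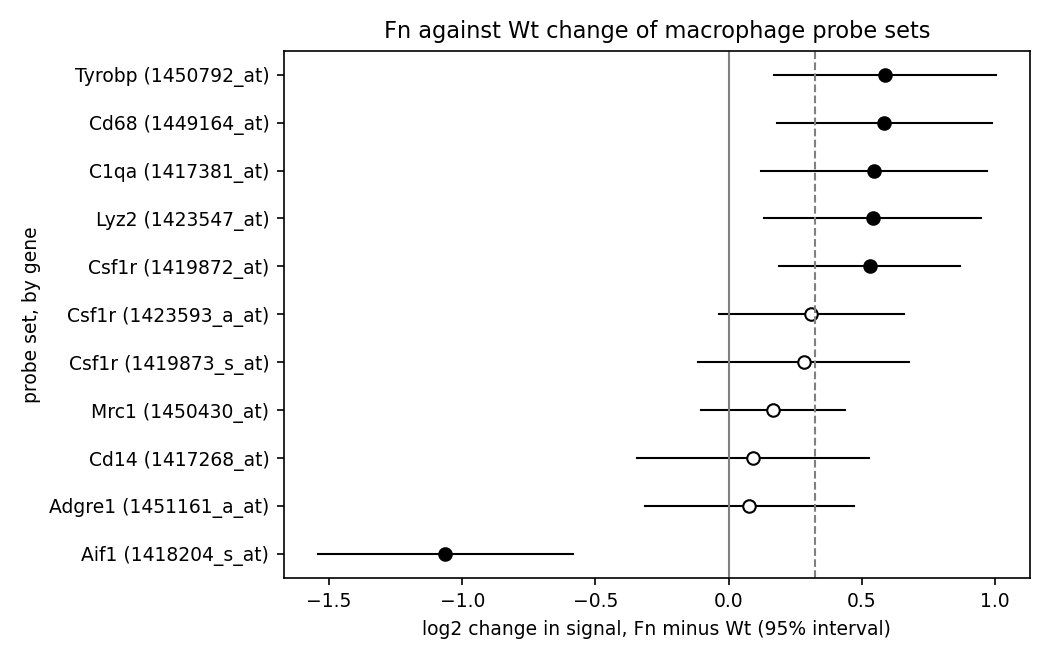
Log2 difference in signal, Fn minus Wt, of the 11 macrophage probe sets that passed the filter, from 3 arrays of P21 testes per genotype. Points are limma estimates with 95% intervals, filled where the adjusted p was under 0.05 and open where it was not, with grey marking 0 and dashes marking the median of all genes, 0.32. The 5 that rose lie at 0.53 to 0.59, their intervals all take in the dashed line, and Aif1 lies apart at -1.06.

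Of the 11 macrophage probe sets that passed the filter, 5 rose and 1 fell, against 41.8% and 20.2% of all probe sets. A log2 difference above 0 was seen in 10 of 11, but the median of all genes was itself 0.32 and 3 of the 11 read Csf1r. The share of all probe sets above 0 was not counted. All 3 Fn values lay above all 3 Wt values in 6 of the 11, where this held for 46.6% of all probe sets, and below in 1, Aif1, where it held for 22.1%. By brightest probe set, 5 of 9 macrophage genes had Fn values above all Wt values, against 48.9% of all genes, and 1 had them below, against 26.6%.

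The macrophage genes varied together between arrays of the same genotype. Wt replicate 3 was the lowest Wt array for 8 of the 9 genes tested, and Fn replicate 2 was the lowest Fn array for 8. Fn replicate 3 was the highest Fn array for 6, the exceptions being Adgre1, Cd14 and Aif1. Over all genes tested, Wt replicate 3 was the lowest Wt array for 41.4%, Fn replicate 2 the lowest Fn array for 34.7% and Fn replicate 3 the highest for 36.8%. These orders share their arrays, so the 9 genes are not 9 separate observations. The order in Fn was not particular to macrophage genes. A list's median deviation was taken from each gene's mean log2 signal over the 6 arrays. For macrophage genes it was 0.19, -0.07 and 0.35 in Fn replicates 1, 2 and 3. Leydig cell genes had 0.22, -0.05 and 0.41, and lysosomal and phagocytosis genes 0.38, 0.14 and 0.55. Endothelial genes (0.25, 0.34 and 0.30) and adipocyte genes (1.26, 1.02 and 0.33) did not share it.

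The difference between Fn and Wt macrophage genes was unequal over the same-numbered arrays. The median of the 9 genes, Fn minus Wt, was 0.23 on the log2 scale for the arrays numbered 1, 0.00 for those numbered 2 and 0.96 for those numbered 3. For all genes the same medians were 0.27, 0.29 and 0.33. The Fn value was above the Wt value in 8 of 9 genes for number 1, in 5 for number 2 and in 8 for number 3, or 88.9%, 55.6% and 88.9%, against 62.8%, 63.7% and 62.5% of all genes. By the median difference the macrophage genes stood above all genes only between the arrays numbered 3, whereas by the share with a higher Fn value they stood above all genes for numbers 1 and 3. Taking the replicate number as a block left all 5 genes higher and Aif1 lower, with 45.8% of all genes higher and 25.4% lower. Without both arrays numbered 3 the median of the 9 genes was 0.22, under the 0.29 of all genes, and Csf1r was the only 1 called higher (limma adjusted p = 0.049), where 38.9% of all genes were, and Aif1 the only 1 lower, where 22.7% were.

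**Figure D3:**
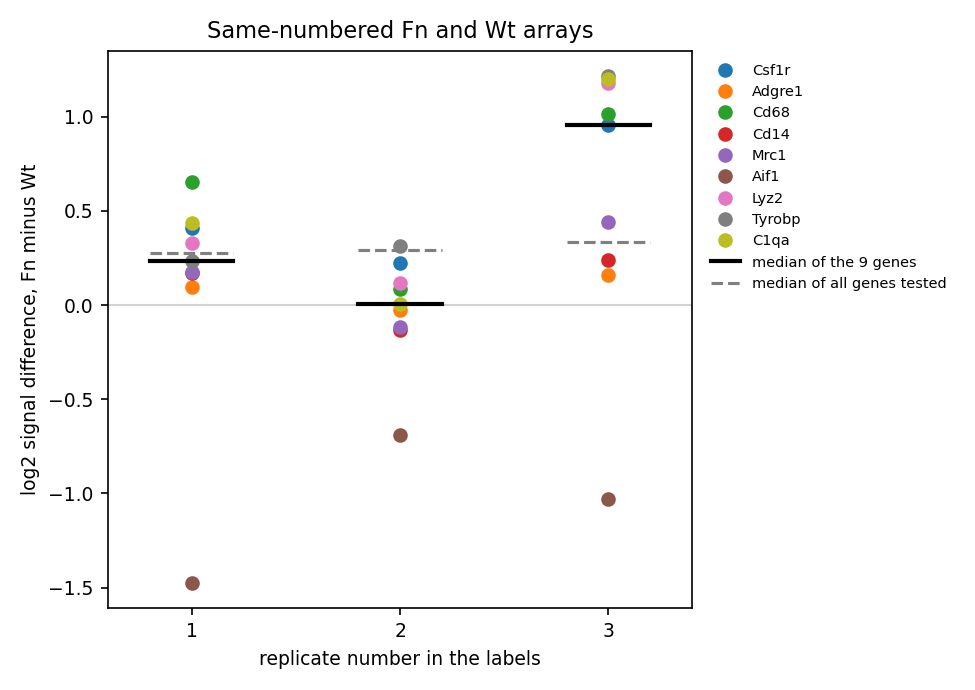
Log2 signal difference, Fn minus Wt, between arrays with the same replicate number, for the 9 macrophage genes that passed the filter. Coloured points are genes, black bars the median of the 9 genes and dashed bars the median of all 13447 genes tested. The black bar lies at 0.23, 0.00 and 0.96 for numbers 1, 2 and 3, while the dashed bar stays between 0.27 and 0.33.

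Genes that act with these members were taken from lists of the same pathways and are given with their counts. Among ligands of CSF1R and transcription factors of macrophages, 4 of 10 genes tested rose and 1 fell, where 44.9% and 24.7% of all genes did, with a median log2 difference of 0.38, or 0.06 relative to all genes. Csf1, the ligand of CSF1R, read 239, 276 and 230 in Wt and 479, 398 and 522 in Fn testes. This was a log2 difference of 0.90 (SE 0.15, limma adjusted p = 0.00071), and it remained at 0.77 (limma adjusted p = 0.0078) without both arrays numbered 3. The transcription factor genes Maf and Cebpb rose by 0.63 and 0.88 on the log2 scale, and without both arrays numbered 3 Maf passed the test (limma adjusted p = 0.029) and Cebpb did not (limma adjusted p = 0.086). Nr1h3, the oxysterol receptor LXR alpha, had a log2 difference of -0.57 (limma adjusted p = 0.043), and 0 genes of the list fell in 5 of the 6 fits that each leave out 1 array, all but the fit without Fn replicate 3. Spi1, which encodes PU.1, had 0.34 (limma adjusted p = 0.16). Il34, the other ligand of CSF1R, lay under the filter and was not tested. It read 69.6, 61.0 and 34.5 in Wt and 43.6, 59.1 and 11.5 in Fn testes, lower in Fn in each same-numbered pair.

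Of partners of TYROBP and of the related adaptor FCER1G, 3 of 6 genes tested rose and 1 fell (44.9% and 24.7% of all genes), with a median log2 difference of 0.46, or 0.13 relative to all genes. The Fc receptor gamma chain gene Fcer1g read 257, 324 and 270 in Wt and 378, 386 and 422 in Fn testes, a log2 difference of 0.48 (limma adjusted p = 0.015). Plcg2, a phospholipase downstream of SYK, rose by 0.59. Inpp5d, which encodes the inhibitory phosphatase SHIP1, had a log2 difference of -0.74 (limma adjusted p = 0.0088). With the arrays centred on their medians 0 of these genes rose at the adjusted p, where 33.1% of all genes did, and Inpp5d fell. After quantile normalization (40.5% of all genes) and centring on the 75th percentile (37.7%) 0 rose as well. The number that rose was 1 without Wt replicate 1 (5651 of 13308 genes), Fn replicate 1 (39.0% of all genes) or both arrays numbered 3 (38.9%). It was 2 without Wt replicate 2 (5615 of 13316 genes). Without both arrays numbered 3 Inpp5d did not pass the test (limma adjusted p = 0.067).

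Of C1q chains and complement receptors, 2 of 5 genes tested rose and 0 fell, where 44.9% of all genes rose and 24.7% fell, with a median log2 difference of 0.51, or 0.19 relative to all genes. The number that rose was 1 after centring on the median (33.1% of all genes) or the 75th percentile (37.7%). It was also 1 without Wt replicate 3 (40.9%), Fn replicate 3 (41.3%) or both (38.9%). It was 3 without Fn replicate 2 (5653 of 13369 genes). C1qb read 842, 801 and 694 in Wt and 1070, 898 and 1415 in Fn testes, the array order of C1qa in Fn, and had a log2 difference of 0.51 (limma adjusted p = 0.022). Its call was lost without both arrays numbered 3 (0.26, limma adjusted p = 0.13) and after centring on the median (0.35, limma adjusted p = 0.15). C1qc, the third chain, had 0.30 (limma adjusted p = 0.15). Vsig4, a complement receptor of resident macrophages, read 102, 82.0 and 78.8 in Wt and 201, 200.4 and 237 in Fn testes. Each Fn value was far above each Wt value, a log2 difference of 1.28 (SE 0.20, limma adjusted p = 4.0e-04), and it was 1.13 without both arrays numbered 3 (limma adjusted p = 0.0055).

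Of genes of lysosomes and phagocytosis, 10 of 12 tested rose, or 83.3% against 44.9% of all genes, and 1 fell, or 8.33% against 24.7%, with a median log2 difference of 0.74, or 0.42 relative to all genes. With the arrays centred on their medians 9 of 12 rose, where 33.1% of all genes did, and without both arrays numbered 3 there were 8, where 38.9% did. Lamp2, a membrane protein of lysosomes, rose by 1.09, the protease gene Ctsz by 1.02 and Mertk, a receptor for dying cells, by 1.11 on the log2 scale. Mertk read 382, 414 and 360 in Wt and 759, 818 and 912 in Fn testes. Lysosomal genes are active in all cells, and Mertk and its relative Axl also serve the Sertoli cells, which engulf dying germ cells, so these are not markers of macrophages alone. Lamp1, another membrane protein of lysosomes, had a log2 difference of -0.28 (limma adjusted p = 0.012). It did not pass the test after quantile normalization, without the intensity trend of limma or without Fn replicate 1. The scavenger receptor genes Msr1 and Marco of this list lay under the filter and were not tested, and both read lower in Fn testes. Msr1 read 88.5, 79.8 and 59.1 in Wt and 38.4, 15.2 and 21.1 in Fn testes. Marco was dimmer, at 7.0, 7.3 and 9.5 in Wt and 1.8, 5.0 and 4.6 in Fn testes.

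Of 22 other macrophage and monocyte markers tested, 7 rose, 1 fell and 14 did not pass the test, with a median log2 difference of 0.44, or 0.12 relative to all genes. The share that rose, 31.8%, was under the 44.9% of all genes, and the share that fell, 4.55%, was under the 24.7%. The number that rose was 4 after quantile normalization (40.5% of all genes) and after centring on the median (33.1%). It was also 4 without Fn replicate 1 (39.0%), Wt replicate 3 (40.9%) or Fn replicate 3 (41.3%). It was 9 without Wt replicate 2 (5615 of 13316 genes) or Fn replicate 2 (5653 of 13369 genes). Pf4, a chemokine gene of resident macrophages and platelets, read 674, 629 and 502 in Wt and 1013, 992 and 1081 in Fn testes, a log2 difference of 0.78 (limma adjusted p = 6.7e-04). The inhibitory Fc receptor gene Fcgr2b rose by 1.13. The gene that fell was Fcgr3, an activating Fc receptor that is also used as a macrophage marker. It read 1934, 1875 and 2261 in Wt and 390, 404 and 392 in Fn testes, with no Fn value near any Wt value. Its log2 difference was -2.35 (SE 0.11, limma adjusted p = 3.1e-07). Ptprc, the leukocyte marker CD45, had a log2 difference of 0.59 (limma adjusted p = 0.072) and was chosen after its values were seen.

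Markers of other cells differed in how far they moved with genotype, and the part of those that did in the macrophage values was not tested. Of 6 MHC class II genes tested, 0 rose and 0 fell in limma, where 44.9% of all genes rose and 24.7% fell. Both counts were also 0 at an unadjusted p under 0.05. The MHC class II genes split the arrays in another way: Cd74, the invariant chain, read 298, 818 and 236 in Wt and 450, 664 and 604 in Fn testes, with Wt replicate 2 the highest. Without Wt replicate 2, 3 of the 6 rose, where 5615 of 13316 genes did. Of 10 markers of T, NK and B cells on the array, 9 lay under the filter, and their summed signal was 244 to 369 in Wt and 242 to 406 in Fn testes. Of 5 adipocyte genes tested, 4 rose, or 80.0% against 44.9% of all genes, with a median log2 difference of 1.80. Their summed signal, with the dim Lep included, was 1388 to 5322 in Wt, with Wt replicate 2 the highest, and 5924 to 11850 in Fn testes. Adipoq, the adipocyte hormone gene, read 154, 291 and 127 in Wt and 850, 676 and 419 in Fn testes. Fn replicate 3, the highest Fn array for most macrophage genes, was thus the lowest Fn array for Adipoq.

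Of 6 Leydig cell genes tested, 3 rose and 0 fell, with a median log2 difference of 0.27, and of 8 endothelial genes 3 rose and 0 fell (median 0.49). Both shares that rose lay near the 44.9% of all genes, and 24.7% of all genes fell. The Leydig count was 0 after centring on the median (33.1% of all genes). It was 1 without Fn replicate 1 (39.0%), Wt replicate 2 (5615 of 13316 genes) or both arrays numbered 3 (38.9%). It was 2 without Wt replicate 1 (5651 of 13308 genes), Wt replicate 3 (40.9%) or Fn replicate 3 (41.3%). The endothelial count was 2 after centring on the median. Star, which brings cholesterol into mitochondria for steroid synthesis, read 492, 347 and 453 in Wt and 727, 529 and 1206 in Fn testes, with Fn replicate 3 the highest and Fn replicate 2 the lowest Fn array, as for most macrophage genes. Its log2 difference of 0.86 (limma adjusted p = 0.018) was the highest of the Leydig genes. The steroid enzyme genes Hsd3b1 and Hsd17b3 also rose, by 0.48 (limma adjusted p = 0.013) and 0.53 (limma adjusted p = 0.038). Cyp11a1 and Cyp17a1, other enzymes of steroid synthesis, had -0.22 (limma adjusted p = 0.56) and -0.20 (limma adjusted p = 0.68). In the Wt arrays the orders differed: Wt replicate 2 was the lowest for Star and Wt replicate 3 for most macrophage genes. The endothelial gene Emcn read 122, 122 and 110.0 in Wt and 252, 247 and 247 in Fn testes, a log2 difference of 1.08 (limma adjusted p = 0.00033) with almost no spread between Fn arrays. The only erythroid gene tested, Alas2 of haem synthesis, had a log2 difference of 0.71 (limma adjusted p = 0.0058). Of 3 neutrophil and mast cell genes tested 1 rose and 0 fell, where 44.9% and 24.7% of all genes did. Cpa3 and Tpsb2 passed the filter through their Fn values and Mpo through its Wt values. These counts therefore rest on dim signals and give no direction.

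**Figure D4:**
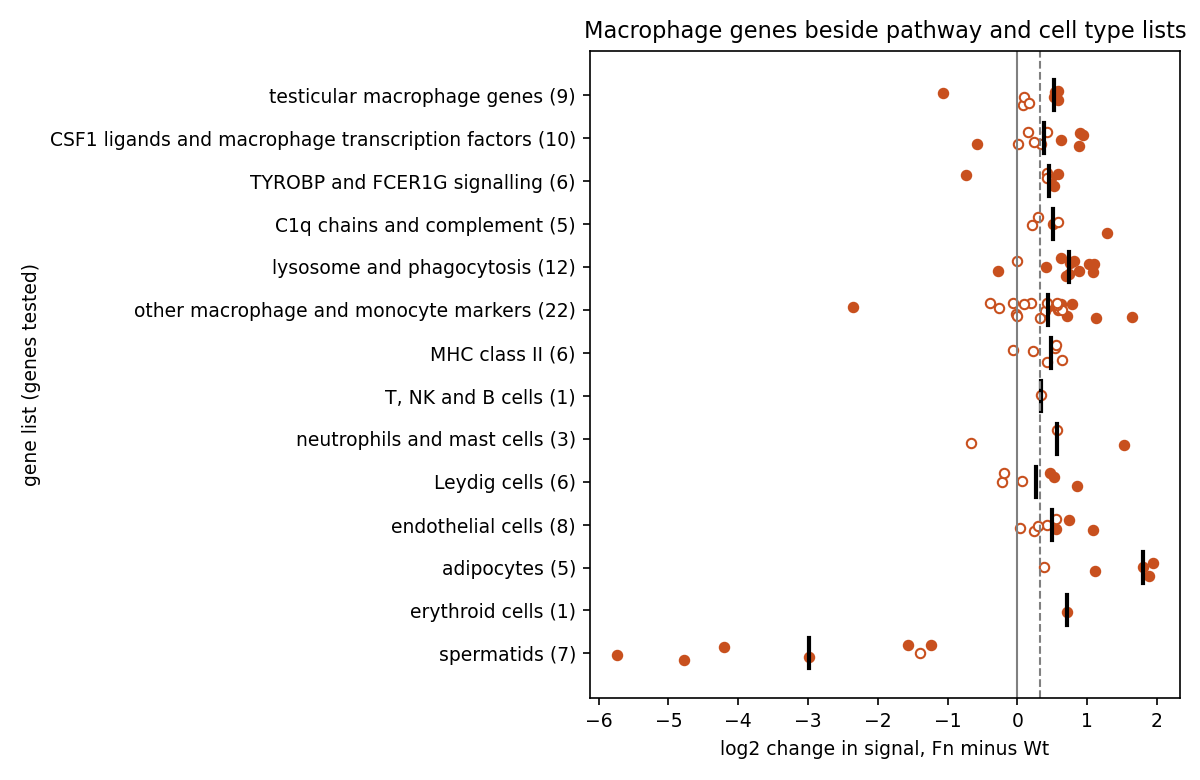
Each point is 1 tested gene of the macrophage list or of 13 lists of pathway genes and markers of other cells, placed by its log2 signal in Fn minus that in Wt (3 P21 arrays a genotype). Filled symbols are genes called by limma at an adjusted p below 0.05 and open symbols are the rest. A black bar marks the median of a list, a grey line 0 and a dashed line the all-gene median of 0.32. The macrophage median of 0.53 lies close to those of the other macrophage lists, 0.38 to 0.51. The medians of MHC class II genes (0.48) and endothelial genes (0.49) lie as close. Lysosomal genes lie at 0.74, adipocyte genes at 1.80 and spermatid genes at -2.98.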

How the data were processed

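RNA of 3 Wt and 3 Fn samples of P21 testes was hybridised to Affymetrix Mouse Genome 430 2.0 arrays. The deposited table holds the authors' MAS5 values, an intensity on a linear scale for every probe set (version not given in the sources used here), with trimmed means of 498.4 to 498.6 per array. The number of arrays limits the precision. Gene names came from the platform annotation. The 1 value of 0 was set to 0.1. Log2 intensities were fitted in R 4.3.3 with limma 3.58.1 (lmFit, then eBayes using a trend in mean intensity) on 27022 probe sets to compare Fn with Wt, with Benjamini-Hochberg adjustment. Intervals are at 95%. A gene was its brightest probe set.

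Deviations from the group means correlated at 0.13, 0.12 and 0.16 between same-numbered Wt and Fn arrays and at -0.15 to 0.04 between others. From these values, and not from a statement of the study, arrays sharing a number were compared as pairs. This pairing entered only the same-numbered differences and the replicate block. All other limma fits were unpaired, with genotype as the only term. The steps were tested on simulated data.

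Members and lists were chosen with earlier results of these data known. Named were all probe sets of the 10 genes and, of each other list, up to 3 genes with the smallest adjusted p and those called against the rest of the list. Others (Spi1, Il34, C1qc, Ptprc, Cyp11a1, Msr1 among them) were chosen for their role or their values. Alternatives covered scaling, filter, pseudocount, prior, array weights, probe set choice, replicate block and left-out arrays. Leaving out both arrays numbered 3 was added after seeing the data.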

Additional observations from a re-analysis of the deposited data

How the results depend on the processing

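The number of macrophage genes that rose was 5 of 9, and it was 2 after quantile normalization and with centring on the 75th percentile, 0 with centring on the median, 3 without the intensity trend of limma and 1 without both arrays numbered 3. Over the 6 fits that each leave out 1 array it was 1 to 5, the lowest value without Wt replicate 3 and without Fn replicate 3, and 3 without Fn replicate 1. The replicate block gave 5, and it changed no call of a macrophage gene. The cause of these differences was not tested. The number that fell was 1 in each alternative except the filter at the 60th percentile, where it was 0 because Aif1 was not among the genes tested. The median log2 difference of the 9 genes kept its direction in all 18 alternatives, from 0.22 to 0.60, and over the left-out arrays from 0.33 to 0.60. Relative to all genes it did not keep it: the macrophage median was 0.22 and that of all genes 0.29 without both arrays numbered 3, and they were 0.33 and 0.32 without Fn replicate 3. Differences that changed sign were small. Adgre1 (0.08) was at -0.066 after quantile normalization, -0.081 centred on the median and -0.052 centred on the 75th percentile, and ran from -0.018 to 0.22 over the left-out arrays. Cd14 (0.09) was at -0.065, -0.066 and -0.037 under the same scalings and ran from -0.014 to 0.20 over the left-out arrays. The Csf1r probe set 1419873_s_at (0.28) was at -0.0017 without both arrays numbered 3. None of these 3 passed the test in any alternative that included it. With 3 arrays a group, a change like the 0.17 of Mrc1 could not be told from 0.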

Other observations

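Mast cells are a separate lineage of leukocytes, and their genes gave low signals. Cpa3, the carboxypeptidase of mast cell granules, read 29.3, 46.3 and 27.0 in Wt and 83.9, 119 and 88.2 in Fn testes, a log2 difference of 1.53 (limma adjusted p = 0.0030). Every Wt value lay under the filter level of 48.0, so Cpa3 passed the filter through its Fn values. The size and the call of its difference depend on dim Wt signals. Mcpt4, a mast cell protease gene, read 31.9, 13.4 and 16.3 in Wt and 69.5, 80.7 and 68.4 in Fn testes, and was not tested because its geometric mean lay under the filter. Neither Cpa3 nor Mcpt4 had its highest value in Fn replicate 3. Tpsb2, another mast cell gene of the list, did. It read 39.0, 38.2 and 41.8 in Wt and 53.9, 53.2 and 70.0 in Fn testes, a log2 difference of 0.56 (limma adjusted p = 0.14). Its Wt values all lay under the filter level too, so Tpsb2 also passed through its Fn values.

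Cd52, a surface glycoprotein gene of leukocytes that was also described in the male genital tract, varied more between arrays of the same genotype than between genotypes. It read 345, 2806 and 1112 in Wt and 1024, 2706 and 954 in Fn testes, with replicate 2 the highest in each. The macrophage genes did not follow this order.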
